A study of Mus musculus and Homo sapiens
Mus musculus with 12 samples.

Results

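The GABA-A receptor genes described here are Gabra2, Gabra3, Gabra4, Gabra5 and Gabra6 for alpha subunits, Gabrg1 and Gabrg3 for gamma subunits, and Gabrd for the delta subunit. The genes were taken by symbol from the count tables of 7 mouse brain libraries, and all 8 were found among the 34496 genes of those tables, which hold 19 genes whose symbol starts with Gabr. The libraries were made by snHH-seq, a droplet method in which RNA of fixed single nuclei is reverse transcribed with random primers, so that fragments from anywhere in a transcript are counted as unique fragment identifiers (UFIs). All mice were wild-type C57BL/6J males of 6 to 8 weeks. Their brains were used frozen or fresh, and the reverse transcription primer carried a first cell barcode (preindex) or did not. This gave 2 frozen libraries without preindex, 2 frozen libraries with preindex, 2 fresh libraries without preindex and 1 fresh library with preindex. The labels do not say whether libraries of one group came from separate animals, so the spread between them may be technical. Groups follow the sample titles, since a treatment field in the labels goes against the title in 4 of the 7 libraries, and the cell barcodes were 40 bases long in the libraries titled with an index and 30 bases long in the others.

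The GABA-A receptor is a chloride channel, built from several subunits, that is opened by GABA, the main inhibitory transmitter of the brain. Most receptors combine alpha and beta subunits with either a gamma or a delta subunit. The alpha subunit sets much of the response to GABA and to drugs, receptors with a gamma subunit can bind benzodiazepines, and delta subunits usually join alpha4 or alpha6 in receptors outside synapses that respond to low, lasting GABA. The alpha6 subunit is known from cerebellar granule cells, and alpha5 from the hippocampus.

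The 7 libraries held 11198 nuclei, between 700 and 3100 per library, with 8605214 to 42439731 UFIs per library and a median of 9011 to 27543 UFIs per nucleus. In 7 of 21 pairs of libraries 32 barcodes were shared, at most 10 in a pair. All genes of the Gabr family were left out of the clustering, which gave 28 clusters, and classes were named from marker genes. Of the nuclei, 9877 lay in neuron-like clusters. Libraries differed in what they held. Cerebellar granule-like nuclei made up 10.9% and 11.9% of the frozen libraries without preindex, 4.0% and 3.92% of the fresh libraries without preindex, and at most 0.0968% of the libraries with preindex. Kidney-like nuclei, 481 in all, were found only in the 2 frozen libraries with preindex, at 11.7% and 10.7%, although all were labelled as brain. Liver-like nuclei, 19 in all, were found only in the fresh library with preindex.

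All 8 genes lie on the minus strand of the mouse genome (GENCODE M21 on GRCm38). Gabrg1 (chr5:70751047-70842617), Gabra2 (chr5:70957597-71095849) and Gabra4 (chr5:71569749-71658308) are neighbours, with 115 kilobases between Gabrg1 and Gabra2 and 474 kilobases between Gabra2 and Gabra4. Gabrg3 (chr7:56716465-57387188) and Gabra5 (chr7:57407672-57510059) lie 20.5 kilobases apart. Gabra3 is at chrX:72432681-72656848, Gabra6 at chr11:42306437-42321072 and Gabrd at chr4:155384980-155398112. Of Gabra5, 90368 bases overlap a protein-coding gene on the opposite strand, and Gabra4 shares 196 bases with Gabrb1, a beta subunit gene, also on the opposite strand. The method is described as keeping the strand of each fragment, and the strand setting of the counting step is not given in the sources used here.

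Start regions were set beside each other because the neighbours on chromosome 5 differed in level and place. RefSeq gave a start region for 7 of the 8 genes (GRCm38.p6), all but Gabrd. The 250 bases upstream of the start are printed for 3 genes of the chromosome 5 group and for Gabra6, whose signal lay mainly in 1 class of nuclei. CG dinucleotides are in capitals, and the minus strand is read 5′ to 3′. The positions are chr5:71095850-71096099 for Gabra2, chr5:71658309-71658558 for Gabra4, chr5:70842618-70842867 for Gabrg1 and chr11:42321073-42321322 for Gabra6.
Gabra2: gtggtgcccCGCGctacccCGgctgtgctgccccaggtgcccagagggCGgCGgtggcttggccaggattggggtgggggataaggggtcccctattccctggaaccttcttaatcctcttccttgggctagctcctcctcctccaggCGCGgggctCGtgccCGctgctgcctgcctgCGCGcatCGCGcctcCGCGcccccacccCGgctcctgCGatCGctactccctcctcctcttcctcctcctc
Gabra4: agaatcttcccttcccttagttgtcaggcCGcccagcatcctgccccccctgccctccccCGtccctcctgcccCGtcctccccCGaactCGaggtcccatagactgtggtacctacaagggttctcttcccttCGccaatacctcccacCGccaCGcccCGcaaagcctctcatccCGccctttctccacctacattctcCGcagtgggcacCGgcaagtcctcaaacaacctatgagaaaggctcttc
Gabrg1: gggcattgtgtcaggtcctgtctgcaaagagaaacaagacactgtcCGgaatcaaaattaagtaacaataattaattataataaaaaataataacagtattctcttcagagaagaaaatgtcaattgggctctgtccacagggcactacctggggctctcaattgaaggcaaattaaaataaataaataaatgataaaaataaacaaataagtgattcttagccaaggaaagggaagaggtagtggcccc
Gabra6: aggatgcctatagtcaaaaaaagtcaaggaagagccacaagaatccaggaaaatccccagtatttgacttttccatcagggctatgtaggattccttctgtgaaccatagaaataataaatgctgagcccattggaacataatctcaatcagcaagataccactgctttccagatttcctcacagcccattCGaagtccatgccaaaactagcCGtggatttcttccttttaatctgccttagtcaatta
Gabra2 held 18 CG dinucleotides and Gabra4 held 12, whereas Gabrg1 held 1 and Gabra6 held 2. Gabra5 and Gabrg3 held 9 each, and Gabra3 held 0 at both of its 2 start sites. The median over 32851 start regions of this length was 6. The letters TATAAA were searched on both strands and were present in 12.4% of all start regions and, among these genes, only in those of Gabra3.

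Levels are given as UFIs per 1000000 UFIs of the summed nuclei (CPM), as mean ± SD over libraries with at least 10 nuclei of the class. Levels in neuron-like nuclei are also given per kilobase of whole gene, as a rough scale between genes. Exon and intron fragments were not counted apart, so ranks of genes of unlike length are uncertain. The levels were 2.20 ± 0.19 CPM per kilobase for Gabra2, 2.16 ± 0.23 for Gabra4, 1.66 ± 0.28 for Gabrg3 and 1.16 ± 0.16 for Gabrd (SD, n = 7). Gabra5 followed at 0.65 ± 0.035, Gabra3 at 0.463 ± 0.019, Gabra6 at 0.373 ± 0.435 and Gabrg1 at 0.225 ± 0.029 CPM per kilobase. Gabra2 and Gabra4 were thus alike in level per length within their spread. The spread of Gabra6 between libraries exceeded its mean. In these summed nuclei, fewer nuclei of a type and less RNA per nucleus cannot be told apart.

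**Figure D1:**
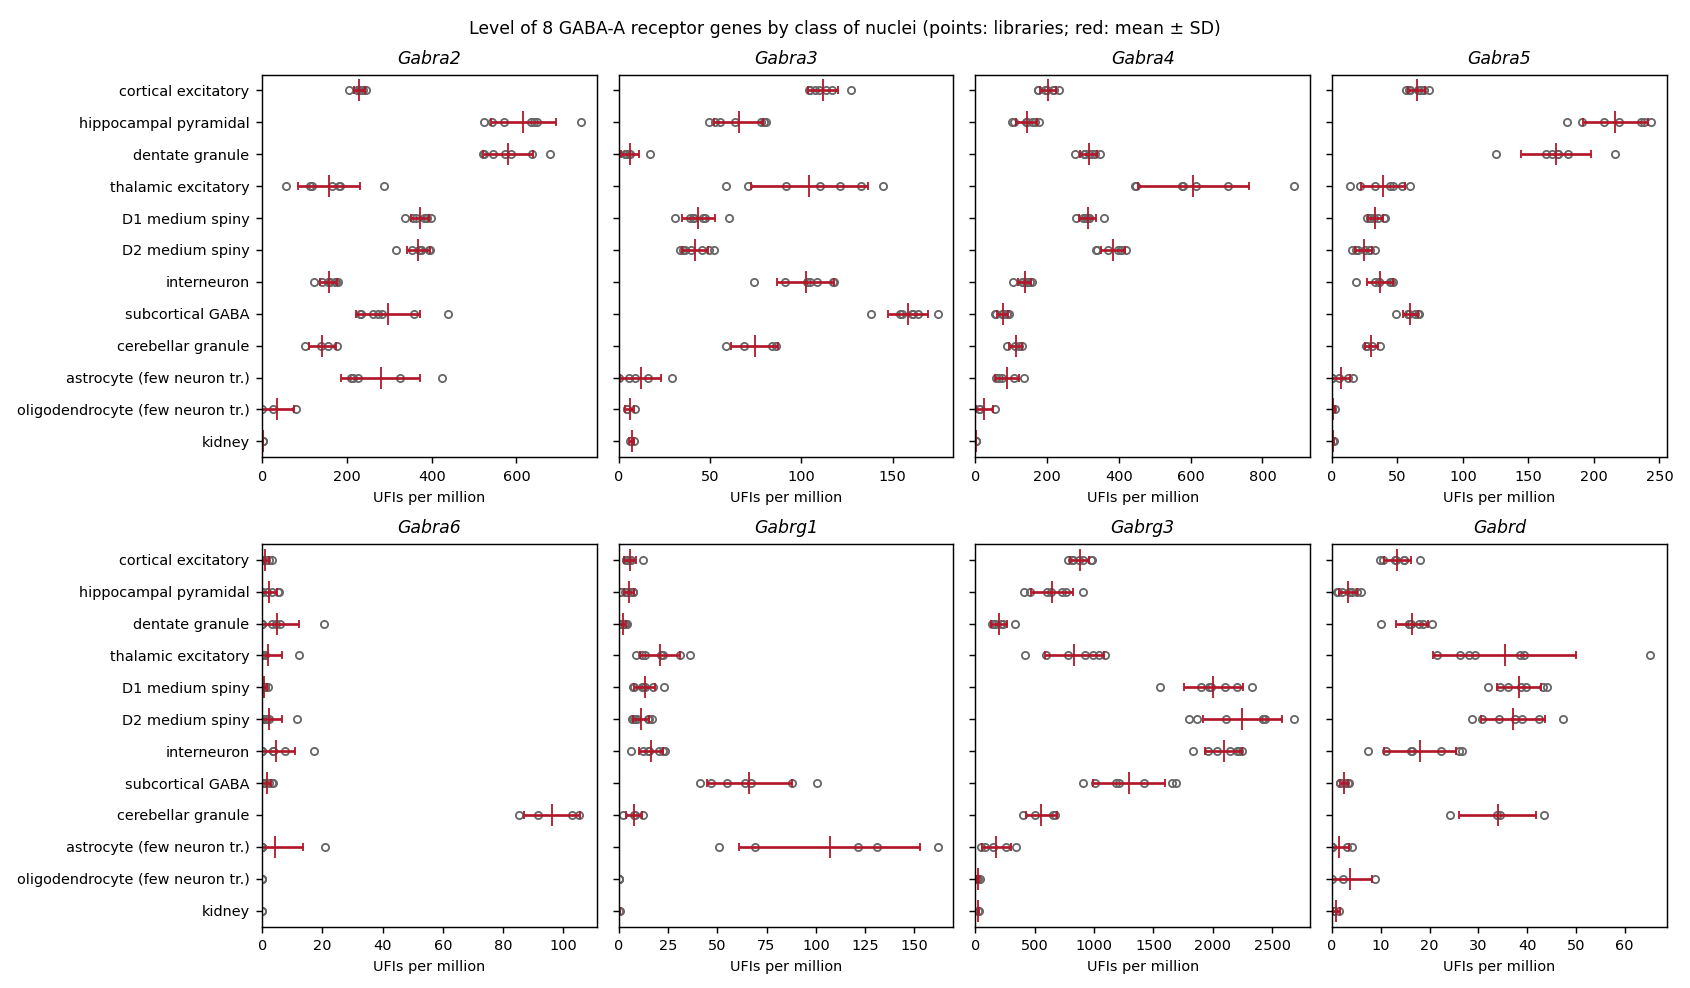
Level of each of the 8 receptor genes (horizontal axis, CPM) in classes of nuclei (vertical axis). Each point is a library with at least 10 nuclei of the class, and bars give mean and SD. Gabra6 stands at 85.3 to 105 in cerebellar granule-like nuclei and Gabra3 at 3.16 to 17.3 in dentate granule-like nuclei.

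Gabra2, which encodes an alpha subunit common in forebrain synapses, was highest in hippocampal nuclei. In hippocampal pyramidal-like nuclei, a class named from 3 markers, it ranged from 525 to 752 CPM with a median of 634 over 7 libraries. In dentate granule-like nuclei it ranged from 521 to 679 CPM with a median of 573. These 2 classes overlapped. Striatal medium spiny-like nuclei followed at 343 to 397 CPM with a median of 383, below dentate granule-like nuclei in each of 7 libraries. Subcortical GABA-like nuclei (297 ± 75.5 CPM) overlapped with striatal ones, and cortical excitatory-like nuclei lay at 229 ± 13.3 CPM. Lowest among neurons seen in 4 or more libraries were thalamic excitatory-like nuclei at 158 ± 73.3, interneuron-like nuclei at 158 ± 20.1 and cerebellar granule-like nuclei at 142 ± 32.1 CPM, which overlapped. Astrocyte-like (287 ± 58.6), microglia-like (257 ± 108) and oligodendrocyte-like nuclei (199 ± 62.6 CPM) had higher means than these. Barcodes of glia-like clusters also carried neuron transcripts. In nuclei with few of them, as defined below, summed Gabra2 was 261 CPM in astrocyte-like and 43.3 CPM in oligodendrocyte-like nuclei. For microglia-like and vascular-like nuclei the part of neuron transcripts in the levels of these genes was not tested. A cluster of 587 nuclei led by Npsr1 and Npr3, to which the markers gave no name, also had a high Gabra2 level of 511 ± 62.0 CPM (SD, n = 7).

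Gabra5, the alpha subunit best known from the hippocampus, was highest in the same 2 classes. It ranged from 179 to 243 CPM (median 219) in hippocampal pyramidal-like nuclei and from 125 to 216 CPM (median 172) in dentate granule-like nuclei. Pyramidal-like nuclei were higher in each of 7 libraries, though the ranges overlapped. All 7 libraries had less Gabra5 in cortical excitatory-like nuclei, at 56.7 to 74.0 CPM with a median of 65.8. Subcortical GABA-like nuclei (59.9 ± 5.9 CPM) overlapped with cortical ones. Thalamic excitatory-like (38.8 ± 16.6), interneuron-like (36.9 ± 9.8) and striatal medium spiny-like nuclei (30.1 ± 4.9 CPM) were lower and overlapped with each other. Microglia-like (53.9 ± 14.6), vascular-like (41.3 ± 15.9) and oligodendrocyte-like nuclei (40.7 ± 18.8 CPM) had means no lower than these. In oligodendrocyte-like nuclei with few neuron transcripts, summed Gabra5 was 8.33 CPM.

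Gabra4, which encodes the alpha subunit that often joins delta in the forebrain, was highest in the thalamus. Thalamic excitatory-like nuclei ranged from 446 to 888 CPM with a median of 578, and the lowest library was above every library of striatal medium spiny-like nuclei, which ranged from 316 to 378 CPM with a median of 329. Dentate granule-like nuclei (315 ± 22.8 CPM) overlapped with striatal ones. Cortical excitatory-like nuclei lay at 202 ± 22.5 CPM, below dentate granule-like nuclei without overlap. Hippocampal pyramidal-like (142 ± 28.3), interneuron-like (137 ± 18.03) and cerebellar granule-like nuclei (112 ± 17.7 CPM) came next, and subcortical GABA-like nuclei were lowest of the neuron classes present in all 7 libraries, at 76.6 ± 15.5 CPM. Microglia-like (171 ± 65.3), astrocyte-like (128 ± 26.1) and oligodendrocyte-like nuclei (101 ± 20.1 CPM) all had higher means than subcortical GABA-like nuclei. With few neuron transcripts, summed Gabra4 was 95.7 CPM in astrocyte-like and 29.2 CPM in oligodendrocyte-like nuclei.

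Gabra3, an alpha subunit prominent in brainstem and basal forebrain, had a different order. Subcortical GABA-like nuclei ranged from 138 to 175 CPM (median 161), above cortical excitatory-like nuclei, which ranged from 104 to 127 CPM (median 110), without overlap. The larger subcortical GABA-like cluster (1697 nuclei) was named from 4 of 8 markers. Its leading genes, such as Baiap3 and Glra1, were not among those markers, so this class may be broad. Thalamic excitatory-like (104 ± 31.9) and interneuron-like nuclei (102 ± 15.6 CPM) overlapped with cortical ones. Hippocampal pyramidal-like nuclei lay at 65.6 ± 13.6 CPM and striatal medium spiny-like nuclei at 43.1 ± 6.0 CPM. Dentate granule-like nuclei were lowest, at 3.16 to 17.3 CPM with a median of 4.10, which overlapped with kidney-like nuclei at 5.95 and 8.09 CPM. Dentate granule-like nuclei were therefore high in Gabra2, Gabra4 and Gabra5 and at the level of kidney-like nuclei in Gabra3.

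Gabra6 encodes the alpha subunit of cerebellar granule cells. Its level in cerebellar granule-like nuclei was 91.7 and 105 CPM in the frozen libraries without preindex and 85.3 and 103 CPM in the fresh libraries without preindex. These 4 libraries were alike. Since Gabra6 was near 0 in every class of the libraries with preindex, other classes are given for the libraries without preindex alone. There, microglia-like nuclei had 20.8 ± 14.5 CPM (SD, n = 3), vascular-like nuclei 15.4 ± 16.8 (n = 3), astrocyte-like nuclei 14.1 ± 8.6 (n = 4) and oligodendrocyte-like nuclei 13.1 ± 4.2 CPM (n = 4). Neuron classes were lower, from 1.85 ± 1.12 CPM in cortical excitatory-like to 8.60 ± 8.01 CPM in dentate granule-like nuclei (n = 4). A UFI of Gabra6 was found in 56.9% of 262 cerebellar granule-like nuclei (95% exact interval 50.6% to 62.9%) and, with each nucleus thinned to 3000 UFIs, in 23.3%. In 894 cortical excitatory-like nuclei of the same libraries the share was 3.24% (2.18% to 4.63%), and 0.671% after thinning. In 124 oligodendrocyte-like nuclei, which should lack the gene, it was 15.3% (9.48% to 22.9%), and 4.84% after thinning. The median depths of the 3 classes were 14233, 21233 and 17943 UFIs. The shares of cortical nuclei were thus below that background. Intervals cover counting error only.

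Gabrg3, a gamma subunit gene, was highest in GABAergic neurons of the forebrain. Striatal medium spiny-like nuclei ranged from 1640 to 2470 CPM with a median of 2070, and interneuron-like nuclei from 1836 to 2249 CPM with a median of 2146. These classes overlapped and both lay above subcortical GABA-like nuclei (1297 ± 304 CPM), in the case of interneuron-like nuclei without overlap. Cortical (879 ± 78.3), thalamic (834 ± 250) and hippocampal pyramidal-like nuclei (645 ± 174 CPM) followed. Microglia-like (833 ± 436), oligodendrocyte precursor-like (741 ± 86.4) and oligodendrocyte-like nuclei (649 ± 152 CPM) were in that range. In oligodendrocyte-like nuclei with few neuron transcripts, however, summed Gabrg3 was 66.6 CPM. Dentate granule-like nuclei lay at 140 to 332 CPM with a median of 168, and Purkinje-like nuclei at 37.3, 85.9 and 101 CPM in the 3 libraries that held enough of them. Gabrg3 is the longest of these genes, and on a per-nucleus basis 98.6% of striatal medium spiny-like nuclei had a UFI, 95.6% after thinning, against 7.69% and 4.16% of kidney-like nuclei.

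Gabrg1, the other gamma subunit gene, was low in most neurons. Subcortical GABA-like nuclei ranged from 41.1 to 101 CPM with a median of 64.0, and astrocyte-like nuclei from 31.2 to 77.7 CPM with a median of 66.3. These classes overlapped. Oligodendrocyte precursor (OPC)-like nuclei had 39.8, 39.3, 33.3 and 25.2 CPM in the 4 libraries with at least 10 of them. Thalamic excitatory-like nuclei (20.8 ± 10.3), interneuron-like nuclei (16.5 ± 6.1) and striatal medium spiny-like nuclei (12.7 ± 3.8 CPM) overlapped, and cortical excitatory-like nuclei lay at 5.88 ± 3.02 CPM. Gabrg1 and Gabra2 are neighbours on chromosome 5, yet dentate granule-like nuclei, near the top for Gabra2, had 0 to 4.00 CPM of Gabrg1 with a median of 2.52.

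Gabrd, which encodes the delta subunit, was low in CPM throughout, and its gene is the shortest of the group. Per kilobase of whole gene in neuron-like nuclei it was at 1.16, above Gabra5 at 0.65, though below Gabra5 in CPM (15.2 against 66.7). Striatal medium spiny-like nuclei ranged from 31.6 to 40.1 CPM with a median of 38.8, thalamic excitatory-like nuclei from 21.5 to 65.3 CPM with a median of 29.3, and cerebellar granule-like nuclei were at 33.9, 24.2, 34.3 and 43.4 CPM. These 3 classes overlapped. Interneuron-like (18.01 ± 7.38), dentate granule-like (16.4 ± 3.3) and cortical excitatory-like nuclei (13.4 ± 2.8 CPM) overlapped below them. Hippocampal pyramidal-like (3.28 ± 1.90) and subcortical GABA-like nuclei (2.44 ± 0.82 CPM) were lowest, near kidney-like nuclei at 0.425 and 1.43 CPM. A Gabrd UFI was found in 34.7% of striatal medium spiny-like nuclei, 9.45% after thinning.

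Classes were then compared within libraries by edgeR's quasi-likelihood test with the library as a block, the cortical excitatory-like nuclei (2984 nuclei) as reference, and p-values adjusted over all genes tested by the Benjamini-Hochberg method. Striatal medium spiny-like nuclei (1333) differed in all 7 genes that passed the count filter. Gabra6 did not pass it. Gabrg1 was low in the reference (5.88 ± 3.02 CPM), so its folds against cortical nuclei, here and below, are given as sizes. Of all genes tested 54.2% were called in this comparison, so a call by itself was common and the sizes carry the result. Gabrd rose by 1.51 ± 0.10 on the log2 scale (SE), Gabrg3 by 1.30 ± 0.06, Gabrg1 by 1.24 ± 0.15, Gabra4 by 0.80 ± 0.07 and Gabra2 by 0.75 ± 0.05. Gabra3 fell by 1.33 ± 0.08 and Gabra5 fell by 1.04 ± 0.11, with an edgeR adjusted p of 6.6e-10 and 4.8e-07. Except for Gabrg1, the class levels of the 7 libraries did not overlap. At a finer clustering, with 1456 cortical nuclei in the reference, Gabra2 was at 1.59, Gabrd at 2.39 and Gabrg1 at 2.13.

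Interneuron-like nuclei (976) also differed in 7 of 7 tested genes, against 53.4% of all genes. Gabrg1 rose by 1.64 ± 0.22 and Gabrg3 by 1.14 ± 0.07 on the log2 scale. Gabra5 fell by 0.92 ± 0.13, Gabra2 fell by 0.65 ± 0.08 and Gabra4 fell by 0.64 ± 0.07. The calls of Gabra3 (-0.21 ± 0.08, edgeR adjusted p = 0.036) and Gabrd (0.34 ± 0.13, edgeR adjusted p = 0.042) lay near the threshold. Each was lost on leaving out any of 4 libraries, with its sign kept (-0.26 to -0.15 and 0.22 to 0.41). Gabra3 lost its call without frozen no-preindex library 1 or 2 (edgeR adjusted p = 0.070 and 0.085) or without frozen preindex library 1 or 2 (0.14 and 0.067). Gabrd lost its call without frozen no-preindex library 2 (0.079), frozen preindex library 2 (0.055) or fresh no-preindex library 1 or 2 (0.17 and 0.12). With nuclei classed by marker score in place of clusters, both changed sign (0.085 and -0.028), both lost their calls without the nuclei above the 95th percentile of UFIs (edgeR adjusted p = 0.057 and 0.17), Gabra3 did with 20 principal components (0.10), and at the finer clustering Gabra2 changed sign (0.14, edgeR adjusted p = 0.10). The finer clustering also gave -1.67 for Gabra5, 1.18 for Gabrd and 2.53 for Gabrg1, and the marker score 2.24 for Gabrg1.

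Dentate granule-like nuclei (398) differed in 5 of 6 tested genes, against 49.4% of all genes, with neither Gabra6 nor Gabrg1 passing the filter. Gabra5 rose by 1.36 ± 0.10, Gabra2 by 1.32 ± 0.07 and Gabra4 by 0.62 ± 0.08 on the log2 scale. Gabra3 fell by 3.90 ± 0.22 and Gabrg3 fell by 2.22 ± 0.12. Gabra3 passed the count filter mainly through cortical nuclei, at 112 ± 8.0 against 6.30 ± 4.98 CPM in dentate ones. Its fold is therefore given as a size, and its call, though counted above, is no separate result. For Gabrd the difference was 0.20 with a 95% interval from -0.13 to 0.53 (edgeR adjusted p = 0.35). The class levels of these 5 genes did not overlap, and each moved one way in 7 of 7 libraries (exact sign-flip permutation test over libraries, two-sided p = 0.0156, the smallest that 7 libraries allow). The sizes depended on how the class was formed. By marker score, with 727 dentate nuclei, Gabra3 fell by 0.71, Gabrg3 fell by 0.82 and Gabra5 rose by 0.64. In dentate granule-like against cortical excitatory-like, Gabra3 was at -2.86 with 20 principal components, -3.10 at the finer clustering and -4.65 without fresh no-preindex library 2. At the finer clustering Gabra2 rose by 2.12 and Gabrd was called at 1.00 (edgeR adjusted p = 5.8e-04).

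Thalamic excitatory-like nuclei (350) differed in 5 of 7 tested genes, against 43.1% of all genes. Gabrg1 rose by 2.05 ± 0.26, Gabra4 by 1.51 ± 0.14 and Gabrd by 1.19 ± 0.18 on the log2 scale. Gabrg1 passed the count filter mainly through thalamic nuclei, at 20.8 ± 10.3 against 5.88 ± 3.02 CPM in cortical ones. Its fold is therefore given as a size, and its call, though counted above, is no separate result. Gabra5 fell by 0.71 ± 0.17 and Gabra2 fell by 0.59 ± 0.17. Gabra2 was lower in 6 of 7 libraries and changed sign at the finer clustering (0.26, edgeR adjusted p = 0.28). Gabra5 lost its call by marker score (-0.36, edgeR adjusted p = 0.064). At the finer clustering Gabrd was at 1.98 and Gabrg1 at 2.95. Gabra3 (-0.18, 95% interval -0.45 to 0.09) and Gabrg3 (-0.17, 95% interval -0.41 to 0.08) did not pass the threshold, but Gabrg3 did at the finer clustering (-0.47, edgeR adjusted p = 0.0064).

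Cerebellar granule-like nuclei (262 in the 4 libraries without preindex, against 894 cortical nuclei) differed in 6 of the 7 genes other than Gabra6, against 31.2% of all genes. Gabra6 passed the filter only through this class, so its fold is left to the levels above. Gabrd rose by 1.13 ± 0.19 on the log2 scale. Gabra5 fell by 1.17 ± 0.13, Gabra4 fell by 0.90 ± 0.10, Gabra2 fell by 0.80 ± 0.10, Gabra3 fell by 0.71 ± 0.11 and Gabrg3 fell by 0.70 ± 0.13. For Gabrg1 the interval of the difference ran from -0.57 to 0.96. These calls depended on how the class was formed. Classed by marker score, it held 665 nuclei from all 7 libraries, Gabra6 did not pass the filter, 2 of the 7 genes tested were called (Gabra4 at -0.42 and Gabrg1 at 1.78), and Gabra2 and Gabrg3 changed sign (0.27 and 0.31). With 20 principal components in place of 40 it held 287 nuclei from 5 libraries, Gabra6 again did not pass, and 4 of 7 genes were called, without Gabra2 (-0.36) and Gabrg3 (-1.18). At the finer clustering Gabra2 was at -0.05 (edgeR adjusted p = 0.83), Gabrd at 1.85 and Gabrg1 at 1.03.

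**Figure D2:**
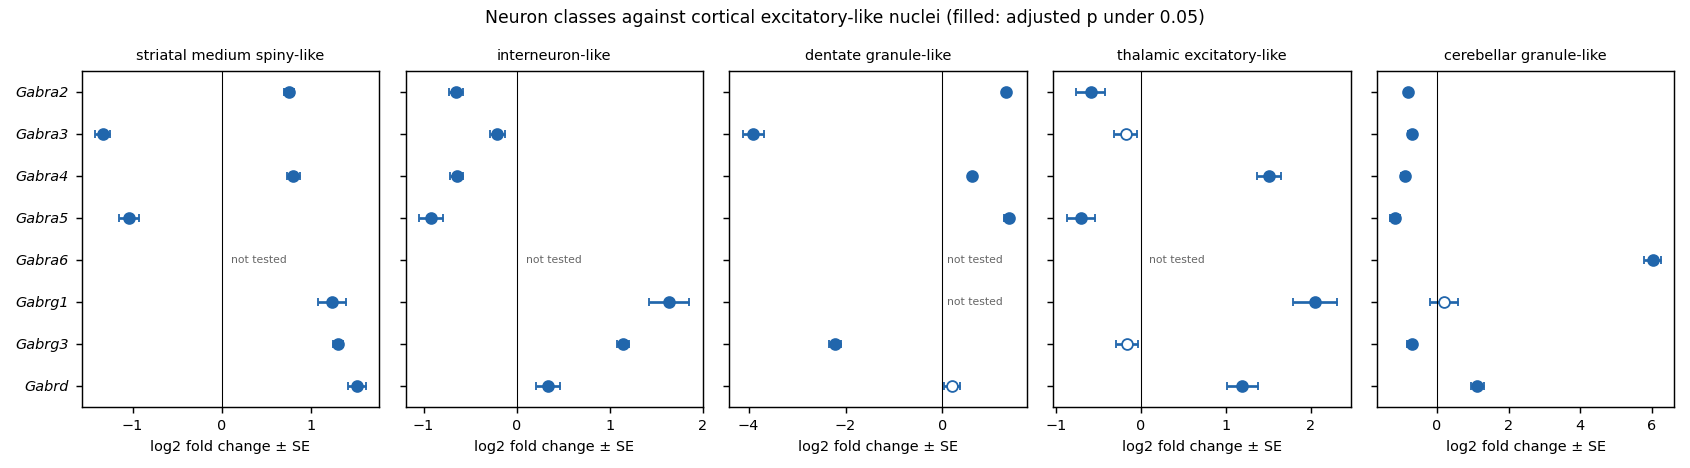
Log2 fold change of each receptor gene (points, with bars of ± SE) in edgeR's quasi-likelihood test of neuron classes against cortical excitatory-like nuclei. Striatal medium spiny-like nuclei have Gabrd at 1.51 and Gabra3 at -1.33, and dentate granule-like nuclei have Gabra2 at 1.32 and Gabra3 at -3.90.

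Striatal medium spiny neurons fall into D1 and D2 types, named for their dopamine receptors. The D1-like cluster (820 nuclei) and the D2-like cluster (513) differed in 2 of 7 tested genes, against 9.86% of all genes. For Gabra4, D1-like nuclei had 318, 307, 301, 317, 311, 282 and 359 CPM and D2-like nuclei of the same libraries had 419, 340, 370, 398, 336, 407 and 405 CPM. D2-like nuclei were higher in each library, though the ranges overlapped. The log2 difference, D1-like minus D2-like, was -0.33 ± 0.07 (edgeR adjusted p = 0.0027), a call lost by marker score (-0.20, edgeR adjusted p = 0.11). Gabrg3 was also lower in D1-like nuclei (-0.20 ± 0.06, edgeR adjusted p = 0.023), a call lost without frozen preindex library 1 or 2, fresh no-preindex library 2 or fresh preindex library 1 (adjusted p = 0.081, 0.053, 0.077 and 0.074). For the other 5 genes the edgeR adjusted p was 0.13 or more, with 0.37 (95% interval 0.09 to 0.64) for Gabra5, whose exact sign-flip permutation p was 0.031, and -0.06 (-0.32 to 0.20) for Gabrd. By marker score Gabra3 was called at -0.58 (edgeR adjusted p = 0.013).

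Clusters within a class also differed in these genes, which is given as description. Among cortical excitatory-like nuclei, Gabra2 was 394 ± 20.1 CPM in a cluster of 883 nuclei led by Pdzrn3 and Lamp5, 203 ± 21.5 in one of 1220 nuclei led by Rorb, and 66.4 ± 12.9 CPM in one of 782 nuclei led by Ctgf, Nxph3 and Hs3st4 (SD, n = 7). Gabrd had the same order, at 23.9 ± 6.4, 10.0 ± 1.3 and 6.91 ± 3.01 CPM. Gabra5 ran the other way, at 36.6 ± 13.1, 68.0 ± 9.6 and 99.0 ± 25.4 CPM, while Gabra3 was similar in the 3 clusters at 123 ± 11.7, 103 ± 11.6 and 105 ± 16.4 CPM. Of the interneuron-like clusters, the one led by Sst and Lhx6 (636 nuclei) had 117 ± 14.2 CPM of Gabra3 and 21.5 ± 13.04 of Gabra5, and the one led by Vip and Adarb2 (340 nuclei) had 70.3 ± 23.1 and 69.1 ± 30.3 CPM. Among subcortical GABA-like nuclei, a cluster of 144 nuclei had 521 ± 101 CPM of Gabra2, 99.8 ± 26.2 of Gabrg1 and 2184 ± 243 of Gabrg3 (n = 5).

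Astrocytes are known to carry GABA-A receptors, and astrocyte-like nuclei were compared with oligodendrocyte-like nuclei. Barcodes of glia-like clusters also carried transcripts of neuron marker genes. Values are therefore given for all nuclei and for those with few neuron transcripts, under 0.5% of UFIs on 6 neuron markers. The markers were Rbfox3, Snap25, Syt1, Meg3, Nrg3 and Csmd1. Whether glia-like nuclei transcribe some of these genes themselves was not tested. Over all nuclei, astrocyte-like (209) against oligodendrocyte-like nuclei (299) differed in 2 of 6 tested genes, against 26.7% of all genes. Gabrg1 rose by 2.69 ± 0.35 on the log2 scale, and by 2.04 with 20 principal components and 1.15 by marker score. Oligodendrocyte-like nuclei had 10.4 ± 8.0 CPM of Gabrg1, so the gene passed the count filter mainly through astrocyte-like nuclei. Its fold is therefore given as a size beside the levels above, and its call is no separate result. Gabra2 was higher by 0.53 ± 0.18 (edgeR adjusted p = 0.046), a call lost on leaving out any of 5 of the 7 libraries, which were frozen no-preindex library 2, frozen preindex libraries 1 and 2, fresh no-preindex library 1 and fresh preindex library 1 (adjusted p = 0.079, 0.091, 0.088, 0.12 and 0.064), or with at least 30 nuclei per class and library (0.18). By marker score Gabra4 and Gabra5 were called as well (0.55 and 0.50, edgeR adjusted p = 0.0039 and 0.017).

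In the nuclei with few neuron transcripts, the 5 libraries with at least 10 astrocyte-like nuclei had 210, 424, 325, 215 and 226 CPM of Gabra2 and 122, 50.8, 69.3, 131 and 162 CPM of Gabrg1. Every one of these libraries was above the oligodendrocyte-like nuclei of the 3 libraries with at least 10 such nuclei, at 0, 78.5 and 26.2 CPM of Gabra2 and 0, 0 and 0 CPM of Gabrg1. Summed over all 7 libraries, the 88 astrocyte-like nuclei held 111 UFIs of Gabrg1 and the 104 oligodendrocyte-like nuclei held 5, a ratio of CPM of 24.8 (95% exact counting interval 10.3 to 77.7). For Gabra2 the sums were 281 and 52 UFIs, a ratio of 6.03 (4.47 to 8.26). The ratio was 3.28 (2.22 to 4.96) for Gabra4, 3.18 (2.45 to 4.15) for Gabrg3 and 1.22 (0.491 to 3.04) for Gabra3. In the 3 libraries with at least 10 such nuclei of both classes, Gabrg3 did not pass the filter. There Gabra2 rose by 3.04 on the log2 scale, and Gabra4 was at 1.40 (edgeR adjusted p = 0.090). Gabra2, at 0, 78.5 and 26.2 CPM in the oligodendrocyte-like nuclei, passed the filter mainly through the astrocyte-like nuclei. Its fold is therefore given as a size, and its call is no separate result. Gabrg3 was lower in nuclei with few neuron transcripts, which was not tested. It was at 855 ± 227 CPM in oligodendrocyte-like nuclei with more of them (n = 7) and at 22.1 ± 11.3 CPM in those with few (n = 3). In astrocyte-like nuclei the values were 693 ± 271 (n = 7) and 177 ± 122 CPM (n = 5).

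**Figure D3:**
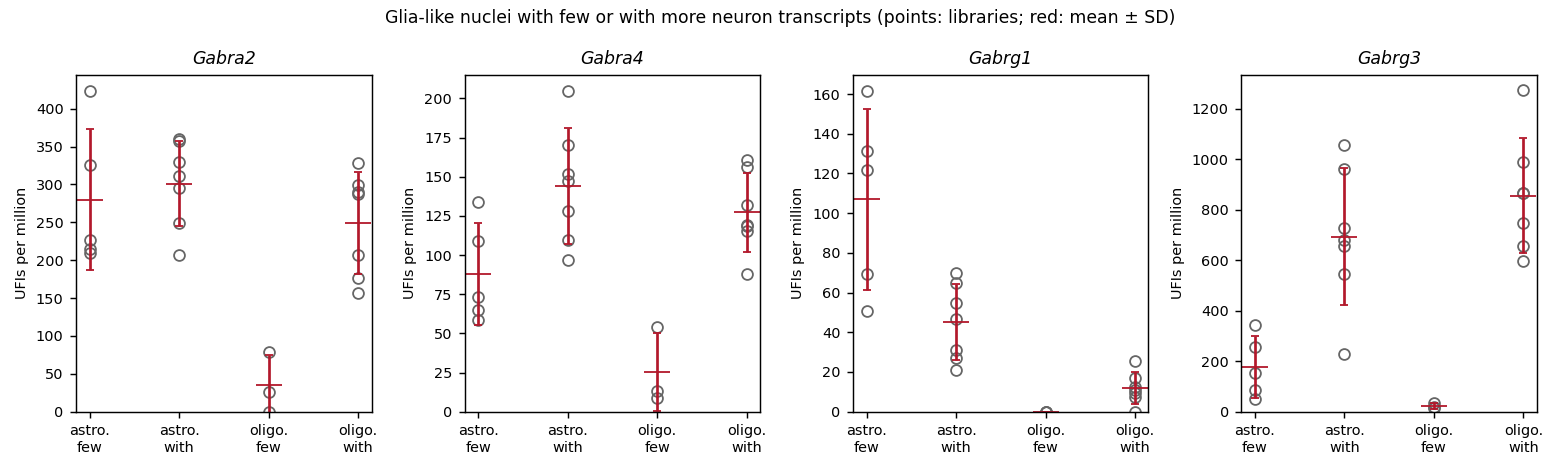
Levels of Gabra2, Gabra4, Gabrg1 and Gabrg3 (vertical axes, CPM) in astrocyte-like and oligodendrocyte-like nuclei with few neuron transcripts (under 0.5% of UFIs on 6 neuron markers) or with more. Points are libraries with at least 10 such nuclei, and red bars are mean ± SD. Gabrg1 is at 50.8 to 162 in astrocyte-like and at 0 in oligodendrocyte-like nuclei with few neuron transcripts.

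OPC-like nuclei (86 in the 4 libraries with enough of them) were compared with 216 oligodendrocyte-like nuclei, where 1 of 6 tested genes was called, against 21.3% of all genes. Gabrg1 rose by 2.39 ± 0.57 on the log2 scale, by 1.13 by marker score, 1.46 with 20 principal components and 3.18 without fresh no-preindex library 2. Here too Gabrg1 passed the count filter mainly through the higher class, the OPC-like nuclei, so these values are given as sizes. Gabra3 was at 0.65 (95% interval 0.13 to 1.18, edgeR adjusted p = 0.11), and was called by marker score, with 20 principal components and without the nuclei of most UFIs (0.74, 0.68 and 0.89). Only 3 OPC-like nuclei were under the limit on the 6 neuron markers, so the part of neuron transcripts in these values was not tested. Whether OPC-like nuclei transcribe some of these markers themselves was not tested either.

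Storage of the tissue was compared over all 7 libraries, with primer as a second term. Over all nuclei 0 of 8 receptor genes were called, against 0.207% of 19299 genes (40 genes in edgeR's test), and 2 had an unadjusted p under 0.05. DESeq2 called 1, which was Gabra6. The frozen minus fresh differences of the 7 other genes ran from -0.13 to 0.15 on the log2 scale, and the widest of their 95% intervals reached -0.26 and 0.34. In neuron-like nuclei 1 of 8 genes was called, against 0.434% of all genes. This was Gabra6, at 1.55 ± 0.18 (edgeR adjusted p = 0.0079), a call lost without frozen no-preindex library 2 or fresh no-preindex library 1 or 2 (adjusted p = 0.084, 0.060 and 0.059). Without cerebellar granule-like and Purkinje-like nuclei it was 1.37 (edgeR adjusted p = 0.10). Gabra6 was near 0 with preindex, so its storage difference rests mainly on the 4 libraries without preindex. Of these, the frozen libraries held 10.9% and 11.9% cerebellar granule-like nuclei and the fresh libraries 4.0% and 3.92%. In striatal medium spiny-like nuclei edgeR called 0 of 7 genes (0.348% of all genes), and 1 had an unadjusted p under 0.05. In cortical excitatory-like nuclei it called 0 of 8 (0.231% of all genes), and 2 had such a p. DESeq2 called 0 in both classes.

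The primer was compared in the same fits. Gabra6, near 0 in the libraries with preindex, is given separately. Of the 7 other genes 2 were called over all nuclei, against 15.8% of all genes, and 4 in neuron-like nuclei, against 21.0%. For Gabrg3 in neuron-like nuclei, the fresh libraries without preindex had 999 and 1050 CPM and the frozen ones 890 and 961 CPM. With preindex, the fresh library had 1206 and the frozen libraries 1364 and 1343 CPM. All 3 libraries with preindex were above all 4 without. The log2 difference was 0.44 ± 0.04 over all nuclei (edgeR adjusted p = 0.0016). It was 0.57 ± 0.06 in neuron-like nuclei (edgeR adjusted p = 1.8e-04), 0.41 ± 0.08 in striatal medium spiny-like nuclei (adjusted p = 0.0044), where 1 of 7 genes was called against 3.90% of all genes, and 0.33 ± 0.06 in cortical excitatory-like nuclei (adjusted p = 0.0046), where it was again the only one of 7, against 8.08%. Gabrg3 was thus higher with preindex in all 4 sets of nuclei. The sets are nested and come from the same libraries, so they are not separate results.

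Gabra4 in neuron-like nuclei was at 184 and 192 CPM (fresh) and 162 and 171 CPM (frozen) without preindex, and at 201 CPM (fresh) and 212 and 216 CPM (frozen) with preindex, again without overlap. Its difference was 0.40 ± 0.05 in neuron-like nuclei and 0.25 ± 0.04 over all nuclei (edgeR adjusted p = 7.4e-04 and 0.0059). It was 0.24 (95% interval 0.07 to 0.42) in striatal and 0.20 (-0.0045 to 0.40) in cortical nuclei and was called in neither. Without the fresh preindex library it was called in cortical nuclei (0.42, edgeR adjusted p = 0.0067). Gabra2 in neuron-like nuclei was at 282 and 274 CPM (fresh) and 303 and 280 CPM (frozen) without preindex, and at 327 CPM (fresh) and 332 and 333 CPM (frozen) with preindex, with a difference of 0.36 ± 0.05 (edgeR adjusted p = 9.2e-04). Cerebellar granule-like nuclei, near 0 with preindex, were low in Gabra2 (142 ± 32.1 CPM). The 13 alternatives in neuron-like nuclei included a fit without cerebellar granule-like and Purkinje-like nuclei. Over these, Gabra2 ran from 0.25 to 0.41, Gabra4 from 0.31 to 0.49 and Gabrg3 from 0.47 to 0.68, and each kept its call. Over all nuclei Gabra2 was at 0.21 (edgeR adjusted p = 0.087), and it was called at 0.34 without kidney-like and liver-like nuclei (edgeR adjusted p = 0.0023). In striatal medium spiny-like nuclei the Gabra2 ranges of the primer groups overlapped, at 343 to 397 and 359 to 386 CPM. In the main fits Gabrg1 passed in neuron-like nuclei alone (0.33 ± 0.10, edgeR adjusted p = 0.043). This call was lost on leaving out any of 5 libraries, which were frozen no-preindex library 1 or 2, frozen preindex library 1 or 2 or fresh no-preindex library 1 (adjusted p = 0.11, 0.17, 0.11, 0.13 and 0.086), and without cerebellar granule-like and Purkinje-like nuclei (0.13). Without the fresh preindex library Gabrg1 was also called over all nuclei (0.24, edgeR adjusted p = 0.041). Gabra3, Gabra5 and Gabrd were not called in any of the 4 sets, with 2 exceptions among the alternatives. These were Gabra5 in neuron-like nuclei without the fresh preindex library (0.20, edgeR adjusted p = 0.042) and Gabrd over all nuclei without those above the 95th percentile of UFIs (-0.40, edgeR adjusted p = 0.024).

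**Figure D4:**
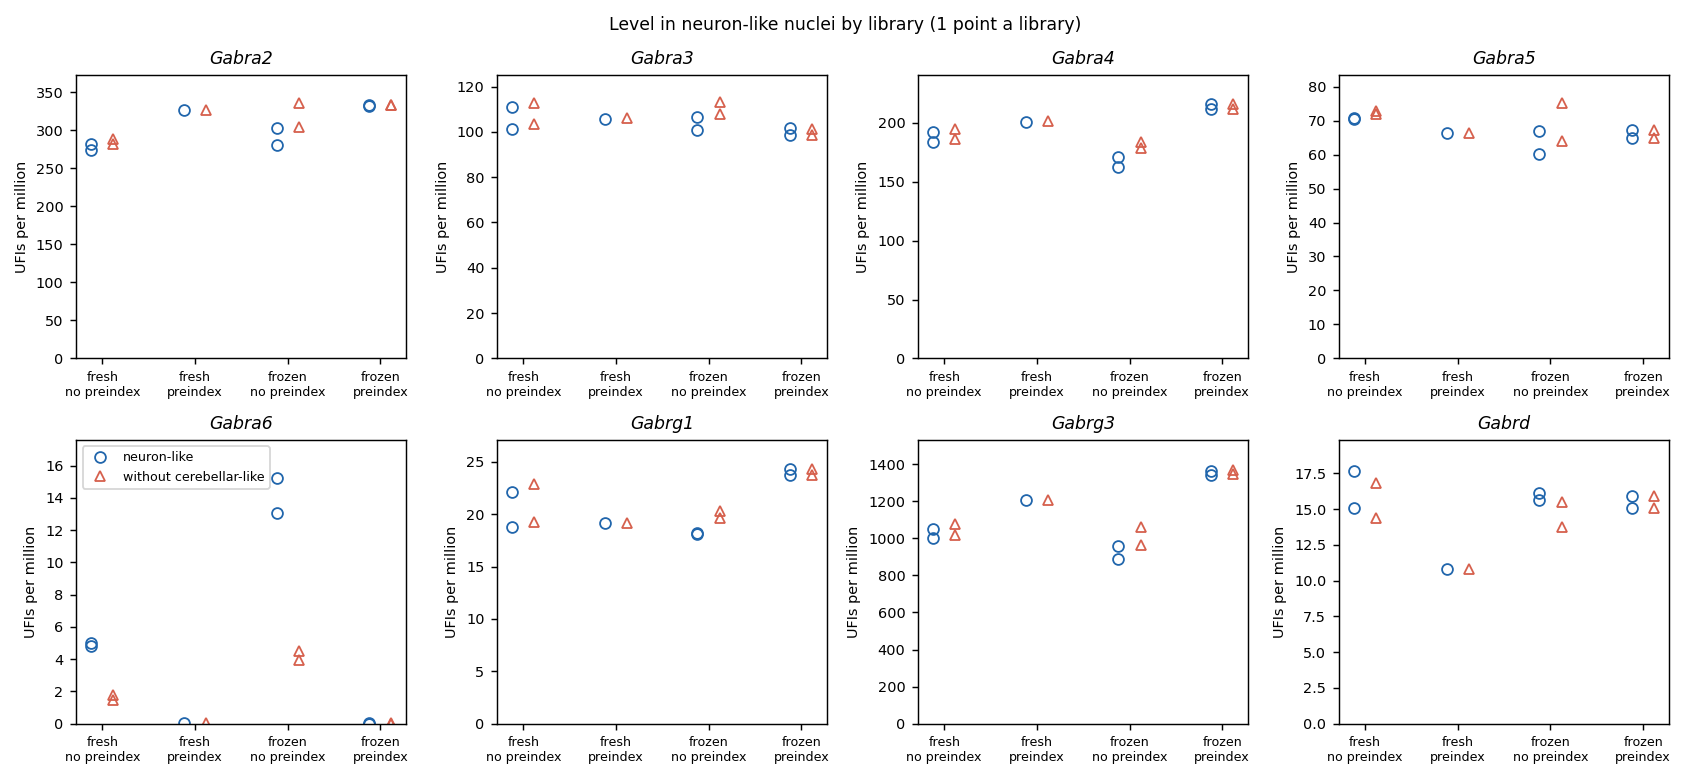
Level of the receptor genes in neuron-like nuclei (vertical axes, CPM) in each of the 7 libraries, grouped by storage and primer. Gabrg3 is at 890 to 1050 without preindex and 1206 to 1364 with it, and Gabra6 is at 4.84 to 15.2 without and at most 0.05 with it.

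Gabra6 was nearly absent from libraries with preindex. Over all nuclei it was at 13.1 and 15.7 CPM in frozen and 4.93 and 5.96 CPM in fresh libraries without preindex, and at 0.038, 0 and 0.062 CPM in the 3 libraries with it. In UFIs this was 719 of 90525782 against 3 of 90213508, a ratio of 239 (95% exact counting interval 81.4 to 1161). Gabra6 went with the share of cerebellar granule-like nuclei, which was also near 0 with preindex. Without those nuclei 283 UFIs against 3 remained, a ratio of 98.8 (33.5 to 482). In cortical excitatory-like nuclei there were 30 UFIs without preindex and 0 with it. The ratio was 11.6 against a floor of 3 counts over the group, and its lower 95% exact counting limit was 8.90. In those nuclei the summed level of 5 cerebellar granule markers other than Gabra6, of which 4 or 5 were above 0 in each library, Fat2, Cbln3, Etv1, Zic1 and Chn2, was 155 to 197 CPM without preindex and 126 to 142 CPM with it. In astrocyte-like nuclei it was 396 to 762 CPM with all 5 above 0, and 138 to 154 CPM with 3 or 4 above 0. In oligodendrocyte-like nuclei the marker sum overlapped, at 393 to 647 CPM without preindex and 297 to 509 CPM with it. There, all 5 markers were above 0 in each library without preindex and 3 in each library with it. Gabra6 in the same nuclei was at 8.51 to 17.6 CPM without preindex and 0 to 2.09 CPM with it. The part of RNA from cerebellar granule cells in the Gabra6 of other classes was not tested.

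**Figure D5:**
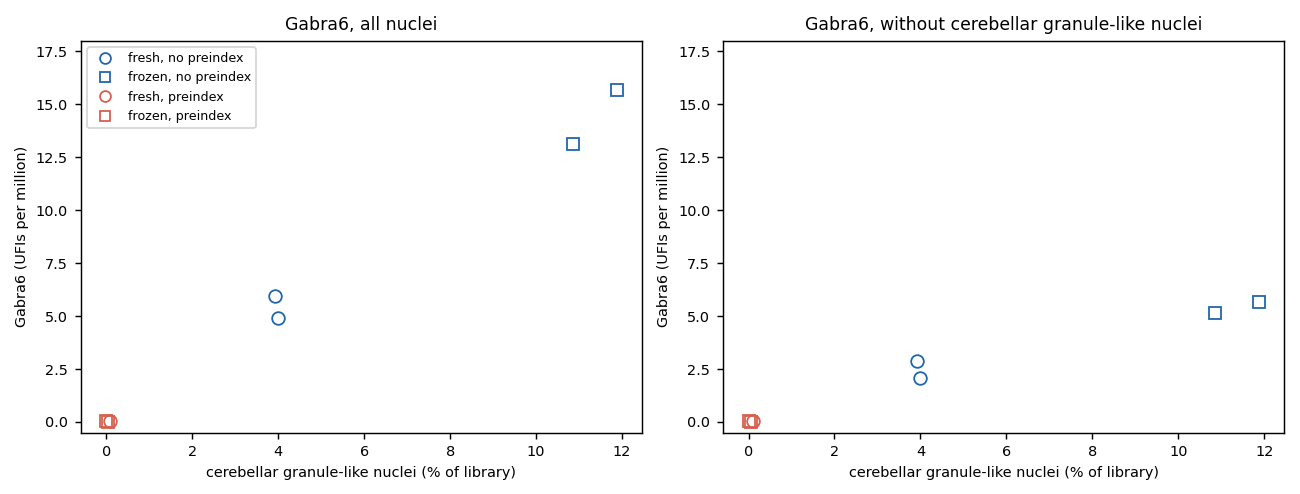
Gabra6 level (vertical axes, CPM) against the percentage of cerebellar granule-like nuclei in the library (horizontal axes), over all nuclei and without the cerebellar granule-like nuclei. Each symbol is a library, with colour for primer and shape for storage. Libraries with preindex lie near 0 on both axes, and the frozen libraries without preindex are highest on both.

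The storage difference was also tested for a difference between primers over all nuclei. This interaction was called for 2 of 8 genes, against 16.4% of all genes, with the fresh preindex arm resting on 1 library. For Gabra2 it was -0.28 ± 0.09 (edgeR adjusted p = 0.039) and for Gabra3 -0.28 ± 0.09 (adjusted p = 0.041). Gabra3 over all nuclei was at 107 and 97.7 CPM in fresh and 99.7 and 103 CPM in frozen libraries without preindex, and at 103 CPM in the fresh and 90.6 and 88.8 CPM in the frozen libraries with it. The frozen libraries with preindex were lowest. They are also the libraries that held kidney-like nuclei at 11.7% and 10.7%, and the part of these nuclei was not tested.

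The other genes of GABA signalling were taken from a list of 35 genes, of which 33 were in the tables. By storage, edgeR and DESeq2 each called 0 of the 32 tested over all nuclei, where 5 and 3 had an unadjusted p under 0.05. By primer, 3 of 32 rose and 7 fell over all nuclei, against 15.8% of all genes. Gabrb1, the neighbour of Gabra4, rose by 0.17 and Plcl1, which takes part in receptor trafficking, by 0.42 on the log2 scale. Slc32a1, which loads GABA into vesicles, fell by 0.85, Nlgn2, an adhesion protein of inhibitory synapses, fell by 0.58, Gabbr1, a GABA-B receptor subunit, fell by 0.54, and Slc12a5, which keeps neuronal chloride low, fell by 0.52. Between classes the counts are set beside the share of all genes called. In striatal medium spiny-like against cortical nuclei 13 of 25 rose and 9 fell (54.2% of all genes). All 5 genes of GABA synthesis, packing and breakdown rose, among them the synthesis enzymes Gad1 (5.18) and Gad2 (5.55), while Gabrb1 and Gabrb2 fell by 0.58 and 0.33 and Gabbr2 fell by 2.15. In thalamic excitatory-like nuclei 6 of 21 rose and 10 fell (43.1%), with Gabrb1 at 0.58 and Gabrb2 at 0.43, beside the rise of Gabra4 and Gabrd. In dentate granule-like nuclei 12 of 23 rose and 3 fell (49.4%), with Gabrb1 at 0.40 and Gad1 at 3.58. In interneuron-like nuclei 11 of 24 rose and 7 fell (53.4%), and in cerebellar granule-like nuclei 7 of 24 rose and 7 fell (31.2%). Gad1 and Gad2 were also among the markers used to name the interneuron-like class, so their rise there is no separate result. In D1-like against D2-like nuclei 1 of 24 rose (Gabbr2, 0.47) and 2 fell, among them Gad1 (-0.59), a share near that of all genes (9.86%). In astrocyte-like against oligodendrocyte-like nuclei 5 of 23 rose, among them the GABA transporter Slc6a11 (4.83) and Gabrb1 (1.73), and 4 fell (26.7%). In OPC-like nuclei 4 of 22 rose, Slc6a11 among them (2.17), and 2 fell, near the share of all genes (21.3%).

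Genes with the most similar pattern over 15 classes were sought by Pearson correlation of log2(CPM + 1), given as description, since the classes come from the same libraries. The 3 closest to Gabra6 were Fat2 (r = 0.96), Cnpy1 (0.95) and Cbln3 (0.94), and the 3 closest to Gabra5 were Rapgefl1 (0.96), Cnih2 (0.96) and Kcnab2 (0.95). Fat2 and Cbln3 were among the markers that named the cerebellar granule-like cluster. The 3 closest included, not always in first place, Lrrc7 (0.96) and Dgki (0.95) for Gabra4, Numbl (0.97) for Gabra2, Snhg11 and Bean1 (both 0.92) for Gabra3, Cxxc4 and Gm26691 (both 0.93) for Gabrg3, and Dok7 (0.91) and Tox2 (0.88) for Gabrg1. For Gabrd the closest were Cfap74 (0.85), which lies 11.1 kilobases away, A830036E02Rik (0.81) and Cd47 (0.79). Among the receptor genes themselves, Gabra2 was most like Gabra5 (0.91) and Gabra4 (0.87), Gabra4 was like Gabrd at 0.73, and Gabra6 correlated with none above 0.49. The 15 classes include kidney-like nuclei, where Gabra2, Gabra4, Gabra5 and Gabrd were at 1.14, 1.56, 0.875 and 0.926 CPM. These r values may rest largely on that class, and r without it was not computed. Gabra4 was highest in thalamic excitatory-like nuclei (608 CPM), where Gabra2 was at 158 CPM.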

How the data were processed

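Counts of nuclei from 7 brain libraries were analysed and the species-mixing libraries of the series were not used. As deposited, the files hold whole-number counts of UFIs per gene and cell barcode. Before deposit the authors trimmed poly-A tails with Cutadapt, chose barcodes by a manual cutoff with UMI-tools, aligned reads with STAR, kept unique reads, assigned them over whole genes with featureCounts and counted UFIs with UMI-tools. The submitters' processing notes name GRCm38 (mm10) and GRCh38 and give no versions.

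All barcodes were kept and no doublet caller was run. Counts were scaled to 10000 per nucleus and log-transformed, and 2000 variable genes, 40 principal components and 10 neighbours were used for Leiden clustering at resolution 0.4 (scanpy 1.11.5, leidenalg 0.10.2). Of 148 listed markers 144 were found. A class name needed at least 3 markers at 2 times or more and 40% of its detected markers, a rule written after clustering. UFIs were summed per library or per class and library with at least 10 nuclei, and were tested by edgeR 4.0.16 (R 4.3.3) with default count filter, TMM scaling and an adjusted p of 0.05. DESeq2 1.42.0 was an alternative. The fits were checked on simulated data. CPM intervals cover counting error only. The SE of a log2 difference was derived from its edgeR test statistic, and its interval from that SE and the normal distribution. With so few libraries these intervals are narrower than the test beside them implies.

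The genes, markers and pathway list were chosen with earlier results of these data known. Named were the 8 genes in full, pathway genes that passed the test, and for each gene the 3 most alike among genes reaching 10 CPM in a class. Cluster names, chromosome neighbours and start regions were chosen after values were seen. Some genes that meet the rule are not reported here. Alternatives on glia-like nuclei with few neuron transcripts and on neuron-like nuclei without cerebellar ones, were added after the data were seen. The other alternatives covered scaling, filter, replicate block, clustering, depth and each library left out.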

Additional observations from a re-analysis of the deposited data

Results flagged for a closer look

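In 120 groups of 4 to 7 libraries the highest or lowest library was compared with the rest, and 10 groups (8.33%) had a library that stood apart by Dixon's criterion. Chance gives about 1 in 20 for libraries made alike, but these groups mixed storage and primer, so that rate is no strict reference. Of the 10 groups, 5 concerned Gabra6, each in a library without preindex. The libraries with preindex, where Gabra6 was near 0 in every class, were among those compared. It was at 5.35 CPM in striatal medium spiny-like nuclei and 20.49 CPM in dentate granule-like nuclei of frozen no-preindex library 1, against 0 to 1.29 and 0 to 5.98 CPM in the other libraries. In frozen no-preindex library 2 it was at 12.24 CPM in thalamic excitatory-like nuclei and 34.74 CPM in vascular-like nuclei, against 0 to 0.836 and 0 to 6.50 CPM. In OPC-like nuclei of fresh no-preindex library 2 it was at 11.1 CPM, against 0 in the others, which were all libraries with preindex.

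Gabra3 in dentate granule-like nuclei was at 17.33 CPM in fresh no-preindex library 2, against 3.16 to 6.07 CPM. Gabrg1 in cortical excitatory-like nuclei was at 12.38 CPM in frozen no-preindex library 1, against 3.71 to 6.10 CPM. Gabrd in thalamic excitatory-like nuclei of the same library was at 65.3 CPM, against 21.5 to 39.3 CPM. Gabra4 in vascular-like nuclei was at 295.29 CPM in frozen no-preindex library 2, against 53.7 to 141 CPM. Gabra5 in microglia-like nuclei was lowest in fresh no-preindex library 2, at 25.61 CPM against 54.2 to 66.0 CPM.

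The storage difference over all nuclei differed between primers for Gabra2 (-0.2763 on the log2 scale, edgeR adjusted p = 0.039) and Gabra3 (-0.2846, edgeR adjusted p = 0.041), with 1 library in the fresh preindex arm.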

How the results depend on the processing

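Values are counts of the 8 receptor genes called by edgeR unless said otherwise. Storage over all nuclei went from 0 to 1 gene without a filter on low counts, by DESeq2 and without kidney-like and liver-like nuclei, and ranged from 0 to 1 on leaving out 1 library (Gabra6 at 1.45, adjusted p = 1.2e-04, without fresh preindex library 1). Storage in neuron-like nuclei went from 1 to 0 with the tested factor alone and without cerebellar granule-like and Purkinje-like nuclei, and ranged from 0 to 1 on leaving out 1 library. Primer went from 1 to 2 in striatal nuclei without a filter and from 2 to 1 in cortical nuclei by DESeq2, which gave no adjusted p for Gabra6. Cerebellar granule-like nuclei went from 7, Gabra6 included, to 4 with 20 principal components and to 2 by marker score. D1-like against D2-like nuclei went from 2 to 1 without nuclei above the 95th percentile of UFIs, with 1 to 2 on leaving out 1 library. Astrocyte-like nuclei went from 2 to 1 with at least 30 nuclei or 20 principal components and to 4 by marker score, with 1 to 2 on leaving out 1 library. OPC-like nuclei went from 1 to 2 with 20 principal components, by marker score and without nuclei above the 95th percentile. Signs turned by marker score for Gabra3 (0.085) and Gabrd (-0.028) in interneuron-like nuclei, Gabra2 (0.27) and Gabrg3 (0.31) in cerebellar granule-like nuclei, Gabra3 (-0.58) in D1-like against D2-like nuclei and Gabra5 (0.50) in astrocyte-like against oligodendrocyte-like nuclei, and at Leiden resolution 1.2 for Gabra2 in interneuron-like (0.14) and thalamic nuclei (0.26). The cause was not tested. Over all single-gene values and settings, 1512 kept their side of the threshold, 46 lost and 21 gained a call, and the 8 listed above turned sign. Direction was compared only where the main value or the alternative was called, so uncalled values that changed sign are among the 1512. No alternative was run for the interaction of storage and primer.

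Same-numbered libraries of different groups did not deviate together (r = 0.042, -0.043 and -0.013 over 19299 genes), which gave no sign that the numbers pair them. Each r rests on 1 deviation per group, and the fresh preindex group, with 1 library, has none. Whether same-numbered libraries share an animal or a batch could therefore not be tested. With the replicate block 0, 1, 0 and 0 receptor genes were called by storage over all, neuron-like, striatal and cortical nuclei, and 3, 5, 1 and 2 by primer. The storage call was Gabra6. It was also among the primer calls over all, neuron-like and cortical nuclei, where it was near 0 with preindex. The block moved the count over all genes from 40 to 5 and from 79 to 31 by storage over all and neuron-like nuclei, and from 3041 to 1731 and 1154 to 711 by primer over all and cortical nuclei. Counts of all genes also moved by storage over all nuclei, from 40 to 1937 without a filter, 0 with the factor alone, 316 by DESeq2, 17 without nuclei above the 95th percentile and 4 to 840 on leaving out 1 library. By storage in neuron-like nuclei they went from 79 to 762, 1 and 177 in the first 3 of these settings, in striatal nuclei from 41 to 115, 7 and 23, and in cortical nuclei from 33 to 353 without a filter and 0 with the factor alone. On leaving out 1 library they ranged from 25 to 953 in neuron-like, 16 to 52 in striatal and 16 to 101 in cortical nuclei by storage, and by primer from 1009 to 5668 over all, 78 to 585 in striatal and 599 to 1278 in cortical nuclei. By primer they went from 3041 to 4787 over all and from 459 to 784 in striatal nuclei without a filter. Cerebellar granule-like nuclei went from 2853 to 1718 with 20 principal components and 1767 by marker score, and D1-like against D2-like nuclei from 765 to 423 by marker score. D1-like and D2-like nuclei could not be compared with 20 principal components, nor OPC-like nuclei with at least 30 nuclei or with few neuron transcripts. The exact sign-flip test cannot go below 0.125 with 4 libraries.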
